A study of Mus musculus with 28 samples.

Results

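The genotype effect described here is the difference in skin RNA between mice without Vsir in any cell (KO) and wild-type mice (WT), averaged over skin that did and did not receive ultraviolet B light. It rests on 12 of the 28 libraries of the series, chosen by the genotype and treatment labels. They form 4 groups of 3 libraries: WT_NoUV and KO_NoUV without light, and WT_UV and KO_UV after 500 mJ/cm2 of ultraviolet B. The mice were female and 12 weeks old, and hair removal preceded exposure by 5 days, in the groups without light as well. The KO mice are labelled VISTAKO and Vsir-/-, the WT mice are described as littermate controls, and all 12 libraries carry 1 batch label. The titles give 3 h between light and harvest, whereas the treatment protocol gives 1 day. The allele, the exons removed and the strain background were not given in the labels.

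Vsir encodes VISTA, an immunoglobulin-family protein of the B7 group that sits mainly on myeloid cells and on resting T cells. It acts both as a ligand and as a receptor, and signalling through it restrains T cell activation and myeloid cytokine release. It is grouped with the immune checkpoints, and mice without it are known for a low-grade rise in immune activation with age. Skin holds keratinocytes, resident macrophages, Langerhans cells and T cells, all of which contribute RNA to a whole-skin library.

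Library totals lay between 30.47 and 43.84 M counted reads. Of the variance, 44.8% fell on a first principal component that separated the treatments. The second held 21.4%, and on it WT_NoUV replicate 1 and WT_UV replicate 2 stood apart at -73.2 and -72.8, with the other WT libraries between -19.5 and 7.1 and all KO libraries between 9.4 and 36.9. The series title names epidermis, but every library held skeletal muscle markers, at a summed 14300 to 44400 CPM (counts scaled to a common library total), beside keratinocyte genes such as Krt14. CPM values are scaled by the trimmed mean of M values (TMM) and are not corrected for gene length, so levels are compared between groups and not between genes.

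Vsir (chromosome 10, 60346851 to 60372684, GRCm38) checked the genotype labels in every library. WT_NoUV libraries held 46.1, 34.6 and 34.5 CPM, and KO_NoUV libraries held 6.87, 6.5 and 5.07. WT_UV libraries held 22, 20.2 and 24 CPM, against 3.24, 3.76 and 1.98 in KO_UV. Every KO library lay below every WT library, and the remaining KO counts were not assigned to exons in the deposited values. The averaged log2 fold change was -2.77 (SE 0.17, adjusted p = 6.24e-06, edgeR quasi-likelihood test), at -2.64 without light and -2.89 after it. In WT skin the level after light was lower than without it, so the KO libraries of each treatment were compared with WT libraries of the same treatment throughout.

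A gene was called when its Benjamini-Hochberg adjusted p for the averaged genotype contrast was below 0.05, where p measures the spread between these libraries, described as biological replicates. Of 20365 genes tested, 1517 (7.45%) were called, 800 (3.93%) higher and 717 (3.52%) lower in KO. A called gene was counted as differing alike when it moved in the same direction in both treatments and its 3 KO and 3 WT libraries did not overlap in either. This held for 1036 genes (5.09%), of which 561 (2.75%) were higher and 475 (2.33%) lower, and 924 of the 1036 were protein-coding. Non-overlap in both treatments alone, without a test, held for 1867 genes (9.17%). The median absolute log2 fold change of the 1036 was 0.8, with 215 more than 2-fold higher and 105 more than 2-fold lower. The contrast averages both treatments, so the shared direction of all 1517 called genes is in part built into the choice.

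With the averaged contrast replaced by 1 treatment, 2 genes (0.00982%) were called without light, Vsir and Wdfy1. After light 9 (0.0442%) were called, among them Vsir, Lyve1, Timd4, Ngfr and Msr1. The first count was 5 to 27 without WT_NoUV replicate 1, 2 or 3, WT_UV replicate 1 or 2 or KO_UV replicate 2. The second was 155, 15 and 19 without WT_NoUV replicate 1, WT_NoUV replicate 3 and WT_UV replicate 3, and 2 to 5 without WT_UV replicate 2, any KO_NoUV replicate, KO_UV replicate 2 or KO_UV replicate 3. The difference between the treatments' genotype effects was called for 0 genes by edgeR and by DESeq2, with 313 (1.54%) at an unadjusted p under 0.05. The number called for the averaged contrast depended on single libraries. It was 784 without WT_NoUV replicate 1, 610 without WT_UV replicate 2, 3076 without WT_NoUV replicate 3, 303 without KO_NoUV replicate 1, 280 without KO_NoUV replicate 2 and 751 without KO_NoUV replicate 3. It was 773, 235 and 809 without KO_UV replicates 1, 2 and 3, and all 235 genes called without KO_UV replicate 2 were also called with all libraries. The 1036 genes that differed alike became 223 without KO_UV replicate 2 and 2040 without WT_NoUV replicate 3, and 255 to 672 or 1698 without WT_NoUV replicate 1, WT_UV replicate 1, WT_UV replicate 2, any KO_NoUV replicate or KO_UV replicate 1. Scaling to total counts alone called 1174 genes with 67.6% higher in KO, against 52.7% with TMM, and moved the median of all genes from 0.016 to 0.046 on the log2 scale.

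**Figure D1:**
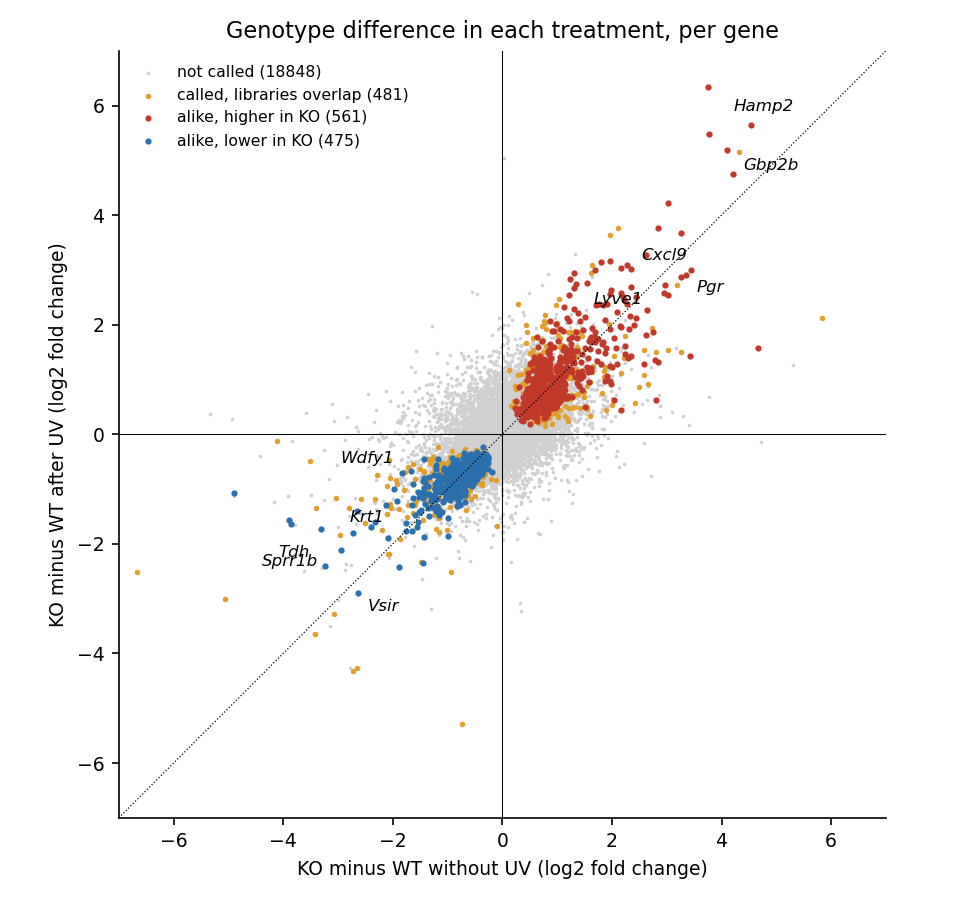
Log2 fold change of KO against WT without light (x axis) and after light (y axis) for each gene tested. Grey points were not called, orange points were called but their libraries overlapped in at least 1 treatment, and red and blue points are the 561 higher and 475 lower genes that differed alike. The dotted line marks equal change, and 3 uncalled genes lie outside the axes.

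The 6 libraries of each treatment were also fitted alone, so that no library entered both fits. Of 832 genes with an unadjusted p under 0.01 without light, 818 (98.3%) moved in the same direction after light, and 492 (59.1%) did so with p under 0.05. Among all genes the shares were 80.2% for the same direction and 16.4% for p under 0.05 after light. In the other direction, 797 of 819 genes (97.3%) kept their sign without light, and 513 (62.6%) did so with p under 0.05, against 15.7% of all genes. Across the 17955 genes of both fits, which are not independent of each other, Pearson's r of the 2 log2 fold changes was 0.724. After adjustment, 4 and 12 genes were called in these fits, and Vsir was the gene called in both.

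All of the interferon-inducible GTPases were higher in KO. These proteins, the guanylate-binding proteins (Gbp) and the immunity-related GTPases (Irg, Igtp, Iigp, Tgtp), attack the vacuoles of intracellular microbes and are made after interferon exposure. The 19 listed members were all tested and called higher (100%, against 3.93% of all genes). Of these, 18 were alike in both treatments, against 2.75% of all genes called higher and alike. The median log2 fold change was 1.67, against 0.02 over all genes tested. Values of the 19 ran from 1.19 for Gbp9 to 4.48 for Gbp2b, and the median was 1.62 without light and 1.68 after it. Gbp11 was the member whose libraries overlapped. Summed over the list, KO_NoUV libraries held 399 to 816 CPM and WT_NoUV libraries 153 to 261, and after light KO held 329 to 990 CPM and WT 119 to 252.

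Gbp6, on chromosome 5, held 1.3, 0.947 and 1.97 CPM in WT_NoUV and 4.31, 7.23 and 6.54 in KO_NoUV. After light it held 1.03, 1.1 and 1.82 CPM in WT and 3.93, 10.5 and 4.2 in KO. The groups did not overlap, with KO_UV replicate 2 the highest library, and the log2 fold change was 2.16 (SE 0.3, adjusted p = 0.00465). Gbp2b, another member, was near the limit of detection in WT, at 0.0323 to 0.41 CPM over 6 libraries, and reached 2.31, 9.61 and 3.36 CPM in KO_NoUV and 0.863, 7.1 and 0.977 in KO_UV. Its log2 fold change of 4.48 (SE 0.67, adjusted p = 0.00683) rests on these few WT counts. Replicate 2 was the highest KO library of both treatments for Gbp2b, Gbp6 and Irgm2. The number of called members was 12 without WT_NoUV replicate 1 or without KO_NoUV replicate 2, 3 without WT_NoUV replicate 1 and WT_UV replicate 2 together, and 0 with skeletal muscle and hair follicle scores as covariates, where the median was 1.28. Tgtp1 and Tgtp2, and several Gbp genes, are near-identical copies whose counts cannot be told apart with certainty.

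RefSeq promoter windows on GRCm38.p6, 250 bases up to the annotated start, were matched by symbol for 11 of the 19 GTPase genes. The interferon-stimulated response element core, GAAA repeated after any 2 bases and bound by IRF factors, was present on either strand in 10 of the 11 (90.9%), and in 3.46% of the 27025 genes with a window. The gamma-activated sequence TTCNNNGAA was present in 6 of the 11 (54.5%) and in 8.13% of all genes. The windows of Gbp2b, Irgm2, Gbp5 and B2m are given here, 5′ to 3′ on the gene's own strand, because these genes rose in KO and show the letters searched for. B2m is from the antigen presentation list. There 2 of 6 called members with a window (33.3%) held the response element core and 1 of 6 (16.7%) the gamma-activated sequence. Capitals mark the matches, which do not overlap each other, and a match describes letters and not a bound site.
Gbp2b, chr3:142594597-142594846, plus strand: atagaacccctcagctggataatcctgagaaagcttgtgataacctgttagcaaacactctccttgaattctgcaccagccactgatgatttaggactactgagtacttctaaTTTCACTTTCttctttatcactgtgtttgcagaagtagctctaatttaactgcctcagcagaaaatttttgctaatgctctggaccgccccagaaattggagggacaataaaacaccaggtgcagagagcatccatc
Irgm2, chr11:58214727-58214976, plus strand: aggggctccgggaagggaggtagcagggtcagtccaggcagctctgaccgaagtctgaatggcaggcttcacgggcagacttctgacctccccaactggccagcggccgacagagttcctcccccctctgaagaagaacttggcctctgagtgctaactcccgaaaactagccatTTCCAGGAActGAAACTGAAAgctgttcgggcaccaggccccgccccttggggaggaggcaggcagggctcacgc
Gbp5, chr3:142496684-142496933, plus strand: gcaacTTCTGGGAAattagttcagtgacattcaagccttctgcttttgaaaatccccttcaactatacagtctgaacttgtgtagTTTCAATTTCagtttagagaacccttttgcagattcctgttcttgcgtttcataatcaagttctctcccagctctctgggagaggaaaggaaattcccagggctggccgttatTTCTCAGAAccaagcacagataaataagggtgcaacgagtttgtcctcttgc
B2m, chr2:122147437-122147686, plus strand: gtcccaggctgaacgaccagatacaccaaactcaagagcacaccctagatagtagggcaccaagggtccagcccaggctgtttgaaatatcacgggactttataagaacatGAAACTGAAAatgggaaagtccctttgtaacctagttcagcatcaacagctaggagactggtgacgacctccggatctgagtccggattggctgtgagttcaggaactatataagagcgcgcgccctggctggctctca

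Of 41 tested members of a wider list of interferon-stimulated genes, 22 (53.7%, against 3.93% of all genes called higher) were called. All were higher in KO, 15 of them alike, and the median of the list was 0.95. Among them were Ifih1, the cytoplasmic RNA sensor MDA5 (0.89, SE 0.16, adjusted p = 0.0141), Stat2 (0.75), which carries the type I interferon signal, and Herc6, a ligase that attaches ISG15 in mouse cells (1.21, SE 0.2, adjusted p = 0.00925). Herc6 libraries held 4.52, 5.14 and 7.79 CPM in WT_NoUV and 11.2, 13.1 and 12.2 in KO_NoUV, and 5.52, 4.03 and 5.75 in WT_UV and 9.94, 18.9 and 10 in KO_UV, with no overlap. Samd9l, an interferon-inducible restriction factor, rose by 1.01 (SE 0.18, adjusted p = 0.0118). Other members did not pass: Isg15, a ubiquitin-like protein, was at 0.88 (SE 0.43, adjusted p = 0.186), Irf7 at 0.76 (0.121) and Ifit1 at 1.32 (0.0903). An interferon-stimulated response element core was present in 2 of the 14 called members with a window (14.3%). The count of called members fell to 9 without WT_UV replicate 2 or KO_NoUV replicate 1, to 4 without KO_NoUV replicate 2 or KO_UV replicate 2, to 11 without KO_NoUV replicate 3 and to 3 with the covariates, where Samd9l was still called.

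Of 22 antigen presentation genes tested, 7 (31.8%, against 3.93% of all genes called higher) were called, all higher in KO and 6 of them alike. All 22 had log2 fold changes above 0, with a median of 0.45. B2m, the invariant light chain of class I molecules, held 951, 1090 and 1060 CPM in WT_NoUV and 1830, 2120 and 2010 in KO_NoUV. After light it held 949, 1090 and 1310 CPM in WT and 1900, 2500 and 2030 in KO. No WT library reached a KO library, the log2 fold change was 0.94 in each treatment (SE of the averaged value 0.12, adjusted p = 0.00304), and B2m was called in all 22 alternatives. H2-Q4 and H2-Q6, class I-like genes of the Qa region, rose by 1.03 (SE 0.13, adjusted p = 0.00281) and 1.54 (SE 0.22, adjusted p = 0.00499), with counts that are uncertain among their close copies. Nlrc5, the activator of class I genes, rose by 0.56, Tapbp (tapasin, which loads peptides) by 0.5 and Psmb8, an immunoproteasome subunit, by 0.76. Of the class II pathway, H2-Ab1 was at 0.2 and Cd74 at 0.38, both uncalled (adjusted p = 0.548 and 0.197), and no difference between the classes was tested. Called members numbered 3 without KO_NoUV replicate 1, KO_NoUV replicate 2 or KO_UV replicate 2, 12 without WT_NoUV replicate 1 and WT_UV replicate 2 together, and 1 with the covariates.

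Among 29 inflammatory cytokines and chemokines tested, 7 (24.1%, against 3.93% of all genes called higher) were called, all higher in KO, 3 of them alike. Cxcl9, a chemokine induced by interferon gamma that attracts T cells, held 3.86, 4.1 and 8.78 CPM in WT_NoUV and 12.5, 36.8 and 35.3 in KO_NoUV, and 1.61, 2.98 and 4.15 in WT_UV and 8.49, 47.9 and 15.1 in KO_UV. The ranges did not overlap within a treatment, and it rose by 2.68 (SE 0.44, adjusted p = 0.00925). Ccl5, which draws T cells and NK cells, rose by 1.58 (SE 0.34, adjusted p = 0.0217), and the myeloid chemokines Ccl6 and Ccl9 by 1.21 (SE 0.22) and 0.9 (SE 0.16), each with adjusted p = 0.0126. Csf1, the macrophage growth factor, rose by 0.77 (SE 0.16, adjusted p = 0.019). Il1b and Cxcl2, made by activated myeloid cells, were at -0.48 (adjusted p = 0.337) and -1.12 (adjusted p = 0.264), and neutrophil markers had 0 of 7 tested members called, with S100a8 and S100a9 uncalled. Called members of the list numbered 3 without KO_NoUV replicate 2 or KO_UV replicate 2, and 1 with the covariates or without KO_NoUV replicate 2 and KO_UV replicate 3 together. Cxcl9 lost its call without WT_NoUV replicate 1 and WT_UV replicate 2 together.

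Of 18 macrophage markers tested, 5 (27.8%, against 3.93% of all genes called higher) were called, all higher in KO and 3 of them alike. All 18 had averaged values above 0, with a median of 0.55, at 0.21 without light and 0.71 after it. The sign was the same in both treatments for 14 of the 18. Summed levels overlapped without light, at 627 to 1090 CPM in WT and 963 to 1310 in KO. After light WT held 899 to 1400 CPM and KO 1530 to 2650, and a difference between treatments was not tested for the list. The called members were led by Timd4, Lyve1 and Cd209f, genes of tissue-resident macrophages (Lyve1 is also made by lymphatic endothelium). Lyve1 held 27.3, 15.3 and 14 CPM in WT_NoUV and 68.4, 59.9 and 34.1 in KO_NoUV, and 51, 37.1 and 59.4 in WT_UV and 201, 221 and 229 in KO_UV. The groups were apart in each treatment, with the 3 KO_UV libraries highest of all, and the log2 fold change was 1.83 (SE 0.2, adjusted p = 0.00216). Timd4, a receptor for phosphatidylserine on dying cells, held 1.5, 1.55 and 0.866 CPM in WT_NoUV and 6.15, 6 and 3.3 in KO_NoUV, and 1.87, 0.744 and 1.59 in WT_UV and 7.76, 11.3 and 6.91 in KO_UV. It rose by 2.3 (SE 0.27, adjusted p = 0.00229) and was called in all 22 alternatives. The general macrophage genes Csf1r, Cd68 and Adgre1 were at 0.05, 0.18 and 0.43, all uncalled, and of 10 endothelial markers 0 were called. Called members numbered 3 without WT_NoUV replicate 2 and 2 without WT_UV replicate 2, any KO_NoUV replicate, KO_UV replicate 2 or KO_UV replicate 3, and 1 with the covariates. In whole skin, more cells of a type and more RNA per cell, or fewer cells and less RNA, cannot be told apart.

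Lymphocyte genes were at low levels. Of 18 T cell markers 3 (16.7%, against 3.93% of all genes) were called higher. They were Cd8a, Cd8b1 and Trac, at 2.27 (SE 0.58, adjusted p = 0.0369), 2.28 (SE 0.63, adjusted p = 0.0472) and 1.13 (SE 0.26, adjusted p = 0.0253). Cd8a, the co-receptor of cytotoxic T cells, held 0.33, 0.82 and 3.79 CPM in WT_NoUV and 6.62, 8.08 and 4.52 in KO_NoUV, and 0.161, 0.221 and 1.57 in WT_UV and 4.21, 5.29 and 2.22 in KO_UV. The pan-T genes Cd3e and Cd3g were at 0.32 and 0.34 and were not called, nor were Trbc1 and Trdc at -0.16 and -0.18. Of 8 tested NK markers, Gzma, Klre1 and Eomes were called higher (37.5%, against 3.93% of all genes). Gzma, a granzyme of killer cells, was at 1.8 (SE 0.36, adjusted p = 0.017) from levels of at most 1.22 CPM. Ifng, the interferon gamma gene, rose by 2.38 (SE 0.55, adjusted p = 0.0263). Its KO_NoUV libraries held 0.439, 0.541 and 0.434 CPM against at most 0.0631 in WT_NoUV, while after light KO held 0.242, 0.0696 and 0.195 CPM and WT held 0, 0.0276 and 0.142, which overlap. T cell markers had 0 called members without WT_UV replicate 2, KO_NoUV replicate 1, KO_NoUV replicate 2 or KO_UV replicate 2, and 1 without WT_NoUV replicate 1 or 2, KO_UV replicate 1 or KO_NoUV replicate 3, and 5 higher and 1 lower without WT_NoUV replicate 3. NK markers had 0 without KO_NoUV replicate 2 and 1 without WT_UV replicate 2 or 3, KO_NoUV replicate 1 or 3, or KO_UV replicate 2 or 3. Of 12 dendritic and Langerhans cell markers 4 (33.3%, against 3.93% of all genes) were called higher, Cd207 (langerin), Xcr1, Clec9a and Zbtb46, at 0.85, 1, 0.92 and 0.6. This count was 0 without WT_UV replicate 2, KO_NoUV replicate 1 or 2 or KO_UV replicate 1 or 2, 1 without WT_NoUV replicate 1 or KO_NoUV replicate 3, and 2 without WT_UV replicate 3 or KO_UV replicate 3. Ifng lost its call without any of 7 single libraries, KO_NoUV replicate 2 and all 3 KO_UV replicates among them, and Gzma without KO_NoUV replicate 2.

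Of 18 tested checkpoints and reported VISTA partners, 2 (11.1%, against 3.93% of all genes called higher) were called higher, Cd80 (0.65, SE 0.17, adjusted p = 0.037), a ligand of CD28 and CTLA-4, and Cd200r1 (0.87, SE 0.24, adjusted p = 0.0455), an inhibitory receptor of myeloid cells, and neither differed alike. Cd274, which encodes PD-L1, was at 0.57 (adjusted p = 0.0739) and Havcr2 (TIM-3) at 0.59 (adjusted p = 0.061). The reported VISTA partners Selplg, Igsf11, Lgals9 and Lrig1 were at 0.03, 0.25, 0.3 and -0.33, with none called. Called members numbered 0 without WT_NoUV replicate 1, any KO_NoUV replicate, KO_UV replicate 2 or KO_UV replicate 3, 1 without WT_UV replicate 1 or 2, WT_NoUV replicate 2 or KO_UV replicate 1, and 4 without WT_NoUV replicate 3. Complement genes had 5 of 20 tested members (25%, against 3.93% of all genes) called, all higher. C3, the central component, was at 1 (SE 0.24, adjusted p = 0.0291) and C1s1, a protease of the classical pathway, at 0.64 (SE 0.15, adjusted p = 0.0274). The count was 0 without KO_NoUV replicate 2, KO_NoUV replicate 3, KO_UV replicate 2 or WT_UV replicate 2, 2 without KO_NoUV replicate 1 and 8 without WT_UV replicate 3. It was 7 higher and 1 lower without WT_NoUV replicate 3, and 3 higher and 1 lower without KO_UV replicate 1. Of 26 Toll-like receptor pathway genes, 4 were called (15.4%, against 7.45% of all genes called in either direction). Tlr3, the sensor of double-stranded RNA, rose by 0.69, Tlr4 by 0.9 and Irak3, an inhibitor of the pathway, by 0.37, and Wdfy1 fell. Of these 4, Wdfy1 alone was called without any KO_NoUV replicate or KO_UV replicate 2, and the list had 2 called without WT_NoUV replicate 1 or 2, WT_UV replicate 2, KO_UV replicate 1 or KO_UV replicate 3. The targets of p53, the transcription factor of the DNA damage response, had a median of -0.03. Of 26 tested, 4 (15.4%, against 3.93% of all genes) were called higher, Fas, Ccng1, Rrm2b and Tigar at 0.82, 0.75, 0.66 and 0.39. The count was 0 without KO_NoUV replicate 1, KO_NoUV replicate 2 or KO_UV replicate 2, and 2 without WT_UV replicate 2, KO_NoUV replicate 3, KO_UV replicate 1 or KO_UV replicate 3 (the last with 1 lower). Cdkn1a was at -0.34 (adjusted p = 0.218).

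**Figure D2:**
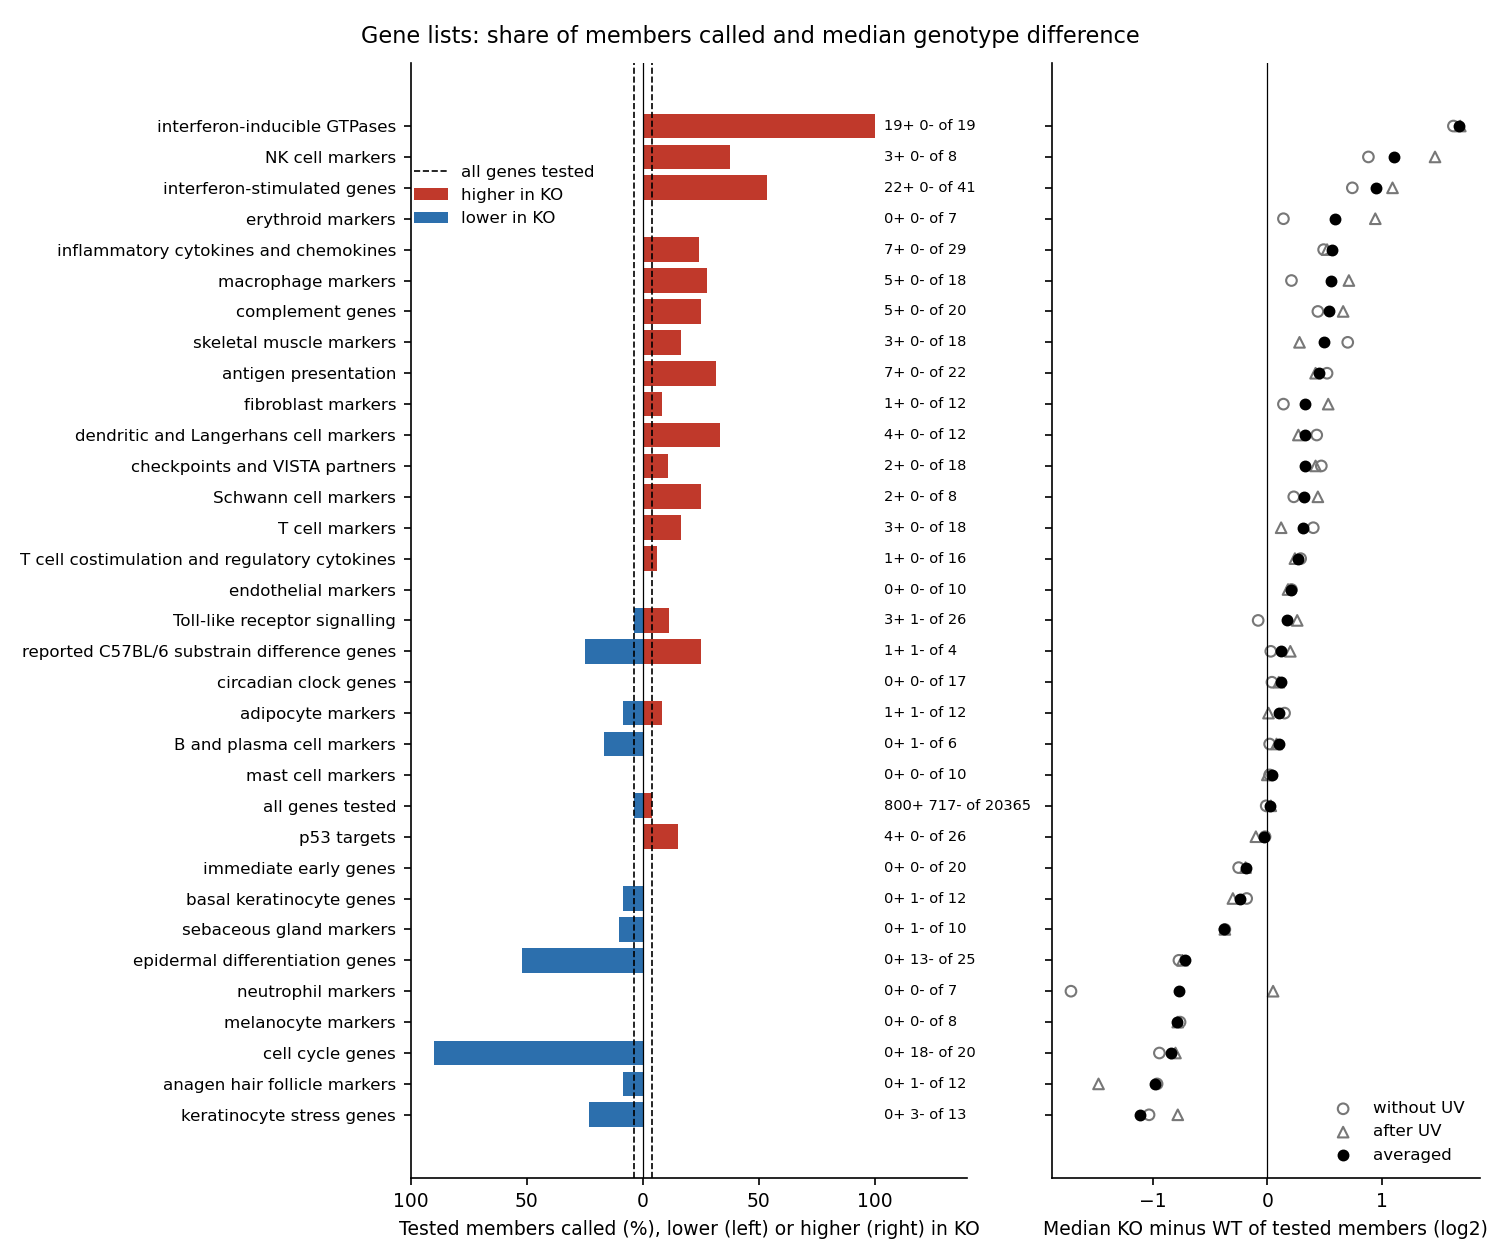
Left, percent of the tested members of each gene list called higher (red, right) or lower (blue, left) in KO, with the counts beside the bars and dashed lines at the shares of all genes tested (3.93% and 3.52%). Right, the median log2 fold change of all tested members without light, after light and averaged. All 19 interferon-inducible GTPases were called higher and 18 of 20 cell cycle genes lower.

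The cell cycle genes fell together. Of 20 tested, 18 (90%, against 3.52% of all genes) were called lower. Of these, 12 differed alike, against 2.33% of all genes called lower and alike. The median was -0.84, and all 20 had values below 0 in both treatments. Pcna and Cenpa were the uncalled members, at -0.21 and -0.83. Mcm5, a subunit of the replicative helicase, held 61.1, 32.9 and 26.8 CPM in WT_NoUV and 15.5, 20.2 and 15.9 in KO_NoUV, and 25.9, 33.7 and 34 in WT_UV and 13.8, 10.9 and 15.9 in KO_UV. KO lay below WT in each treatment, WT_NoUV replicate 1 was the highest library, and the log2 fold change was -1.22 (SE 0.19, adjusted p = 0.00795). Aurkb, a kinase of chromosome segregation, fell by 1.27 (SE 0.2, adjusted p = 0.00881), and Cdk1, the kinase that drives mitosis, by 1.03 (SE 0.16, adjusted p = 0.00795). Mki67, the proliferation marker, was among the smaller falls at -0.61 (SE 0.15, adjusted p = 0.0334). The list's summed level was 1030 to 1280 CPM in WT_NoUV and 643 to 741 in KO_NoUV, and 734 to 970 in WT_UV and 399 to 700 in KO_UV. Called members numbered 6 without KO_NoUV replicate 1, KO_NoUV replicate 2 or KO_UV replicate 2, 10 without KO_NoUV replicate 3, 11 without KO_UV replicate 1 and 0 with the covariates, where the median was -0.61.

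For the cell cycle genes, 2 promoter motifs known to control them were searched in the 16 called members with a RefSeq window. The E2F motif TTTNNCGC was present in 2 of 16 (12.5%) and in 4.94% of all genes, and the cell cycle homology region TTTGAA in 7 of 16 (43.8%) and in 18.3% of all genes. The 250 bases before the starts of Cdk1 and Mcm5 are shown as the windows with an E2F match, with matches of both motifs in capitals, and the 2 E2F matches of Mcm5 overlap each other on opposite strands.
Cdk1, chr10:69352913-69353162, minus strand: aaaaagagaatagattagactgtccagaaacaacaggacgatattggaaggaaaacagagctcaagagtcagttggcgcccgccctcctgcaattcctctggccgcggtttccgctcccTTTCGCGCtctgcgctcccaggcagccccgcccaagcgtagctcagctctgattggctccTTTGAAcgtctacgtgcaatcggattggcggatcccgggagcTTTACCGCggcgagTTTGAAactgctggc
Mcm5, chr8:75109259-75109508, plus strand: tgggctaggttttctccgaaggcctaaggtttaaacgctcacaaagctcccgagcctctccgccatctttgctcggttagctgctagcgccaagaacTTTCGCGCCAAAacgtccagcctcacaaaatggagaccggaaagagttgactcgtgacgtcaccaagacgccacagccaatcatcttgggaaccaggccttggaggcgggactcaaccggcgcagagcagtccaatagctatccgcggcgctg

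Of 25 epidermal differentiation genes tested, 13 (52%, against 3.52% of all genes) were called lower. Of these, 6 differed alike, against 2.33% of all genes called lower and alike. Of the 25, 24 had values below 0, and the median was -0.72. Krt1, the keratin of the spinous and upper layers, held 9990, 4980 and 7360 CPM in WT_NoUV and 1710, 2150 and 3300 in KO_NoUV, and 4400, 6390 and 5350 in WT_UV and 2440, 1220 and 2900 in KO_UV. It was apart in both treatments at -1.47 (SE 0.24, adjusted p = 0.00925), while its partner Krt10 was called at -0.72 (SE 0.16, adjusted p = 0.0252) with overlapping libraries. Lor (loricrin) and Ivl (involucrin), proteins of the cornified envelope, were called at -1.17 and -0.85, and Tgm3, which cross-links the envelope, at -1.88 (SE 0.35, adjusted p = 0.0139). Late cornified envelope genes followed, with Lce1d at -1.3 (SE 0.23, adjusted p = 0.0126), although the Lce1 copies share sequence and their counts are uncertain. Flg (filaggrin) was uncalled at -1.69 (SE 0.59, adjusted p = 0.0855) and Flg2 was at 0.16. Basal keratinocyte genes had 1 of 12 members called (8.33%, against 3.52% of all genes called lower), Krt14 at -1.27. This call was lost in 8 of the fits with 1 library left out, each KO replicate, WT_NoUV replicate 1 and WT_UV replicate 2. Keratinocyte stress genes had 3 of 13 called (23.1%), Krt6b, Sprr1b and Sprr2h, at -4.6, -2.52 and -2.12. Krt6b held 1660 CPM in WT_NoUV replicate 1 and 4.23 and 59.5 in the other WT_NoUV libraries, which overlap the 2.66 to 7.96 CPM of KO_NoUV, and its call was also lost with the replicate block and with limma-voom. The count was 0 without WT_UV replicate 2, KO_NoUV replicate 1 or 2 or KO_UV replicate 2, 1 without KO_UV replicate 3, 7 and 6 without WT_NoUV replicates 2 and 3, and 0 without WT_NoUV replicate 1, in which Sprr1b held 565 CPM against 47.9 and 107 in the other WT_NoUV libraries. For the differentiation list the count was 7 without WT_NoUV replicate 1 or WT_UV replicate 2, 3 without KO_NoUV replicate 1 or 2, 4 without KO_UV replicate 2, 8 without KO_UV replicate 1 and 0 with the covariates, where the median was -0.26.

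Among the 12 largest rises that differed alike were genes outside the interferon lists. Pgr, the progesterone receptor, held 2.14, 1.17 and 1.34 CPM in WT_NoUV and 13, 18.3 and 16.9 in KO_NoUV, and 3.23, 0.441 and 0.711 in WT_UV and 8.66, 9.46 and 14.1 in KO_UV. The genotypes were apart, at 3.13 (SE 0.38, adjusted p = 0.00281). Greb1, an oestrogen-responsive cofactor, held 3.24, 1.36 and 1.16 CPM in WT_NoUV and 13.6, 9.77 and 8.34 in KO_NoUV, and 8.3, 3.83 and 4.64 in WT_UV and 26.2, 21.5 and 25.4 in KO_UV. It rose by 2.28 (SE 0.27, adjusted p = 0.00229), and both genes were called in all 22 alternatives. Rxfp1, the relaxin receptor, rose by 2.36 (SE 0.42, adjusted p = 0.0126), Crp, the acute-phase C-reactive protein, by 2.22 (SE 0.26, adjusted p = 0.00229), and Akr1cl, a member of the aldo-keto reductase family, by 2.46 (SE 0.31, adjusted p = 0.00308). Hamp2, a hepcidin gene, had the largest value of the named genes at 5.08 (SE 0.95, adjusted p = 0.0149), from WT libraries of at most 0.258 CPM and KO libraries of 0.318 to 14.6 CPM, and it was not called without WT_NoUV replicate 1 or WT_UV replicate 2. Iigp1, on chromosome 18, belongs to the interferon-inducible GTPases described above. It rose by 2.33 (SE 0.44, adjusted p = 0.015) and lost its call without the same libraries as Hamp2.

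Among the named falls that differed alike, the largest was that of Tdh, which encodes threonine dehydrogenase, at -2.82 (SE 0.57, adjusted p = 0.019). Tdh held 54.5, 10.1 and 18.3 CPM in WT_NoUV and 0.879, 2.07 and 5.85 in KO_NoUV, and 6.71, 16.3 and 16.8 in WT_UV and 2.31, 0.591 and 4.52 in KO_UV, and was not called without WT_NoUV replicate 1, WT_UV replicate 2 or KO_NoUV replicate 2. Cemip, a protein that breaks down hyaluronan, held 12.6, 2.62 and 5.97 CPM in WT_NoUV and 1.62, 1.53 and 1.85 in KO_NoUV, and 2.19, 4.03 and 2.48 in WT_UV and 1.04, 0.452 and 0.855 in KO_UV. It fell by 1.98 (SE 0.34, adjusted p = 0.0116) and kept its call with each library left out in turn. WT_NoUV replicate 1 was the highest library of its group for Tdh, Cemip, Sprr1b, Krt1 and Mcm5.

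Wdfy1 had the smallest adjusted p after Vsir. It encodes an endosomal protein reported to help TLR3 and TLR4 signal, and it is among the genes reported to differ in expression between C57BL/6 substrains. Its libraries held 38.3, 46.1 and 49.1 CPM in WT_NoUV and 15.2, 13.9 and 13.1 in KO_NoUV, and 49.3, 37.6 and 46.2 in WT_UV and 27.4, 28.5 and 27.8 in KO_UV. KO was below WT in both treatments with narrow KO ranges, at -1.17 (SE 0.1, adjusted p = 0.000439) by the edgeR quasi-likelihood test. The values were -1.66 without light and -0.67 after it, a difference with an unadjusted edgeR interaction p of 0.000337 that was not called after adjustment. Ide, the insulin-degrading enzyme, another gene reported to differ between substrains, held 453, 470 and 702 CPM in WT_NoUV and 820, 840 and 1070 in KO_NoUV, and 410, 393 and 462 in WT_UV and 791, 677 and 788 in KO_UV. It rose by 0.79 (SE 0.13, adjusted p = 0.00925). Ide lies in a stretch of chromosome 19 where 4 of 8 tested genes were called higher, Hectd2os, Fgfbp3, Btaf1 and Ide. The share of all genes called higher was 3.93%. Such stretches were picked out for holding at least 4 called genes of 1 direction, so this count is built into the choice. Of the other listed substrain genes tested, Nnt was at 0.23 (adjusted p = 0.609) and Cyfip2 at 0.01 (adjusted p = 0.978). Wdfy1, Ide, Vsir, B2m, Timd4, Pgr and Greb1 were the 7 of 100 called named genes that stayed called in every alternative run.

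**Figure D3:**
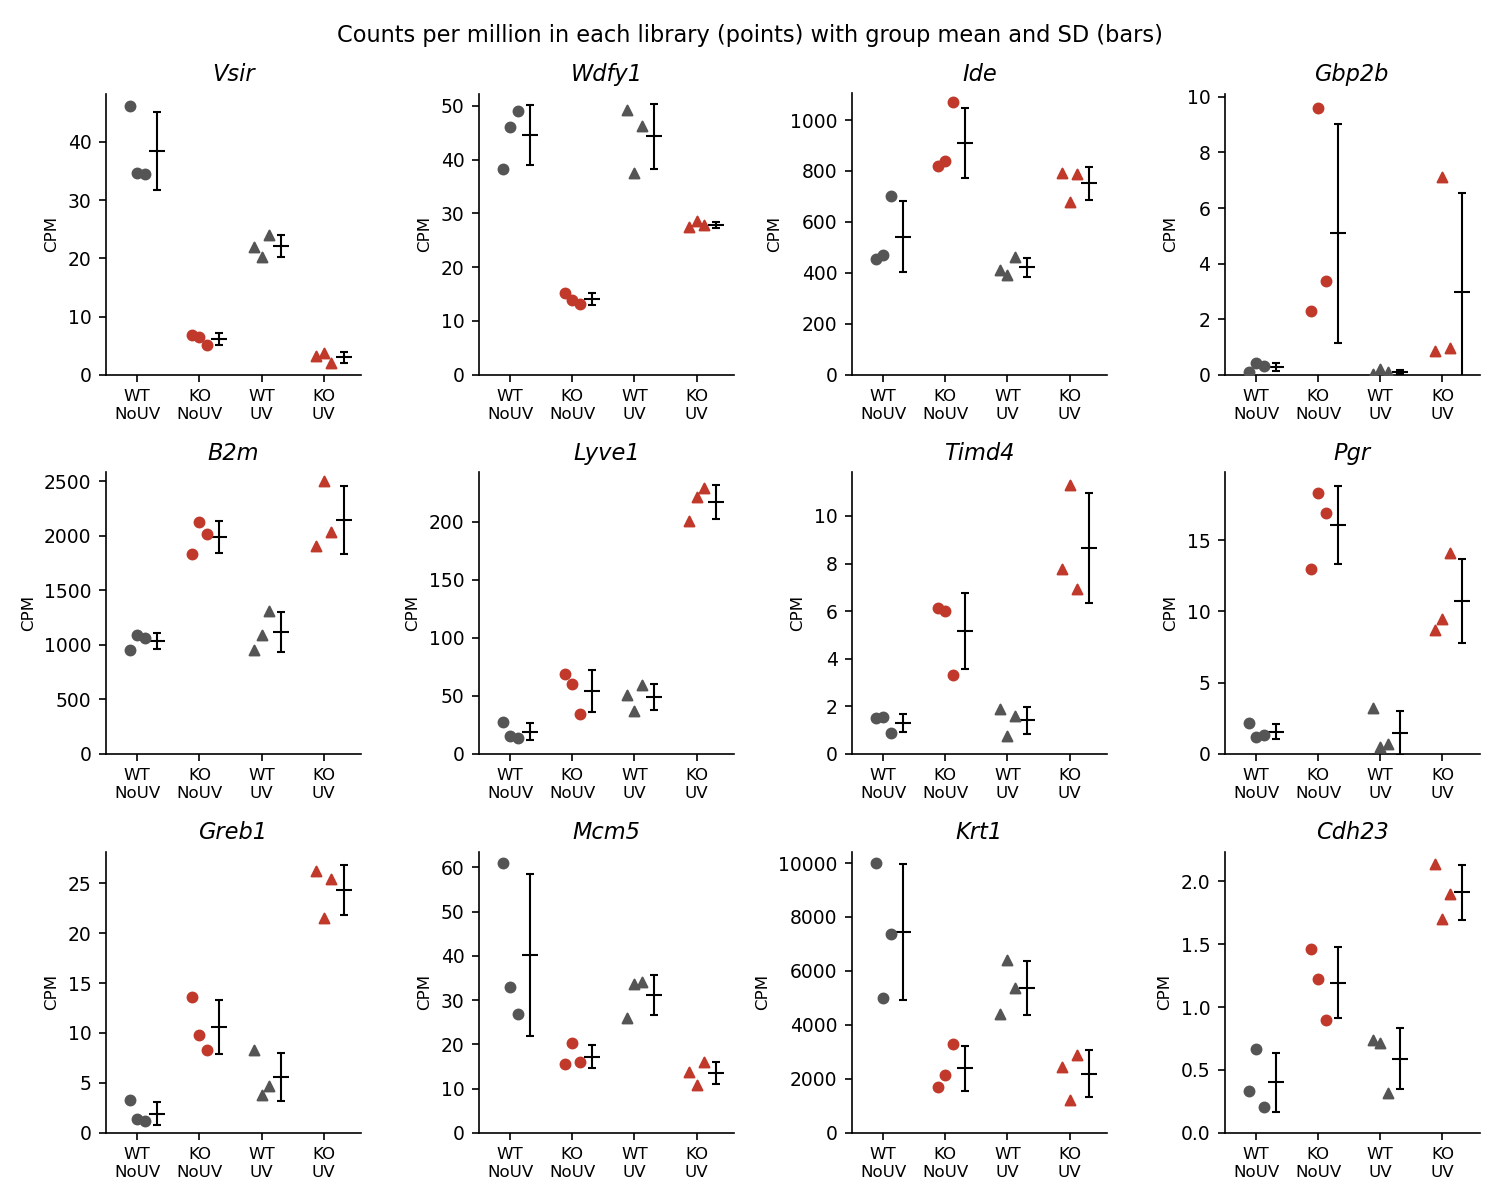
CPM in each library for 12 genes, with WT in grey, KO in red, circles without light and triangles after light. Horizontal ticks and bars give the group mean and SD (n = 3), and every axis starts at 0. The KO and WT points do not overlap within a treatment in any of the 12 panels.

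Vsir lies within the span of Cdh23 (chromosome 10, 60302748 to 60696490), a cadherin gene read from the opposite strand. Cdh23 held 0.33, 0.663 and 0.209 CPM in WT_NoUV and 1.46, 1.22 and 0.897 in KO_NoUV, and 0.742, 0.717 and 0.313 in WT_UV and 2.14, 1.7 and 1.9 in KO_UV. It was higher in every KO library, at 1.64 (SE 0.3, adjusted p = 0.0126), and since the strand setting of the counting was not given, reads of the overlapping genes cannot be told apart with certainty. Within 10 Mb of Vsir, 12 of 132 tested genes (9.09%) were called, Vsir included, with 7 higher and 5 lower. The share was 9.41% of 85 genes within 5 Mb and 7.21% of 319 within 20 Mb, near the 7.45% of all genes. The 12 included Pkib, an inhibitor of protein kinase A, at 0.83 (SE 0.18, adjusted p = 0.0234), Ppa1, a pyrophosphatase, at -0.49 (SE 0.11, adjusted p = 0.0252), and Cdk1. By chromosome, the called share ran from 6.05% on chromosome 18 to 10.2% on chromosome 3.

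**Figure D4:**
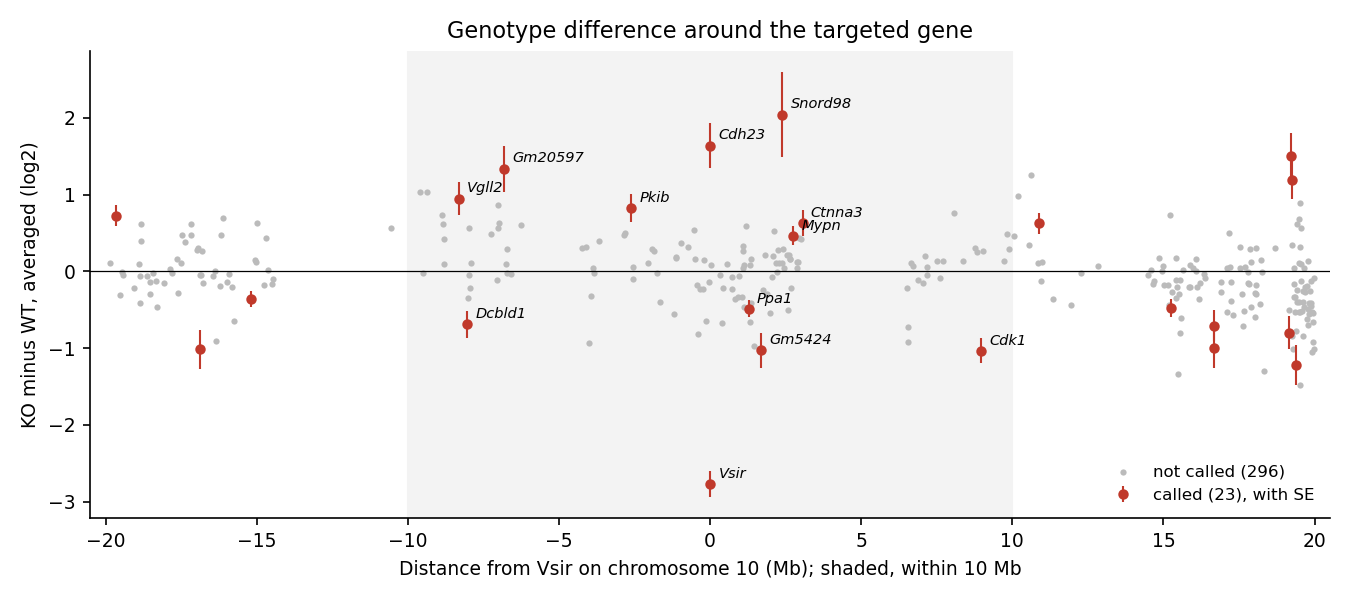
Averaged log2 fold change of the 319 genes tested within 20 Mb of Vsir, by distance from Vsir on chromosome 10. Red points with SE bars are the 23 called genes, those within 10 Mb (shaded) are named, and Cdh23 sits at distance 0 because it overlaps Vsir.

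Called genes also lay side by side in gene families, in stretches that were picked out after their values were seen. Each stretch had to hold at least 4 called genes of 1 direction with starts within 1 Mb, so high shares are built in. Of all genes, 3.93% were called higher and 3.52% lower. On chromosome 3 all 5 tested genes of the Gbp cluster (Gbp5, Gbp7, Gbp3, Gbp2b and Gbp2) were called higher, as were all 4 of the next cluster on chromosome 5 (Gbp4, Gbp10, Gbp6 and Gbp11). On chromosome 7 the same held for 7 of 8 genes around the Trim30 family of antiviral ligases, and on chromosome 1 for 8 of 11 genes around the Ifi200 family of DNA sensors. On chromosome 18 all 7 tested genes around Iigp1 were higher. Among lower genes, a stretch of chromosome 3 with the Lce and Sprr genes held 22 called of 44 tested, and 7 of 18 were called around the kallikrein genes Klk5 to Klk11, proteases of the outer epidermis, on chromosome 7. Members of each family resemble each other in sequence, so their values are not independent.

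Of the 1517 called genes, 44 had an unadjusted edgeR interaction p under 0.05, beside 313 of all 20365 genes tested (1.54%). Among the 44, 15 still differed alike by the non-overlap rule, of 1036 genes that did so. Ngfr, the low-affinity nerve growth factor receptor, held 12.9, 7.98 and 9.79 CPM in WT_NoUV and 11.3, 15.7 and 15.1 in KO_NoUV, but 4.58, 3.01 and 3.76 in WT_UV and 11.4, 13.8 and 15.9 in KO_UV. The genotypes overlapped without light and were apart after it (0.45 and 1.86). Msr1, a macrophage scavenger receptor, was at 0.42 and 1.66, and Ripk4, a kinase of keratinocyte differentiation, at -0.12 and -0.84. Neither these nor any other gene passed the adjusted threshold for the interaction.

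The like contrast was taken in the keratinocyte experiment, whose 16 libraries of another batch label compare floxed mice carrying K14Cre (cKO) with floxed mice without Cre (FL), 4 libraries per group. K14Cre is active in basal keratinocytes and their descendants. In a joint model of all 28 libraries, 0 of 21851 genes were called for cKO against FL by edgeR and 294 by DESeq2. Vsir in whole skin was at 0.17 (SE 0.19, adjusted p = 0.792) there, and its level does not check the deletion in keratinocytes alone. Of 1032 genes that differed alike and were tested in both, 824 (79.8%) had the same sign in cKO against FL, compared with 57.3% of all genes tested in both. Some tissue marker lists also had the same sign in both experiments. Their cKO minus FL medians were 0.97 for skeletal muscle, -1.43 for anagen hair follicle and -0.76 for melanocytes. In the whole-body experiment these were 0.49, -0.98 and -0.79. Other lists had opposite signs, among them fibroblast (-0.28 against 0.33), macrophage (-0.3 against 0.55), basal keratinocyte (0.07 against -0.24) and mast cell markers (-0.21 against 0.04). The part of tissue markers in the shared sign was not tested. For the genes that differed alike, cKO minus FL medians were smaller, at 0.19 against 0.86 for the higher genes and -0.22 against -0.75 for the lower ones. Cell cycle genes had a median of -0.78 in the keratinocyte experiment, with all 18 called members below 0, and the GTPases had 0.31, with 17 of 19 above 0.

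The difference between the experiments was called for 11 genes (0.0503%), 7 of which differed alike in the whole-body experiment. Vsir differed by -2.96 (SE 0.31, adjusted p = 1.12e-05), Pgr by 5.46 (SE 0.91, adjusted p = 0.0148) and Greb1 by 3.62 (SE 0.49, adjusted p = 0.00106). Pgr held 1.12, 2.38, 25.9 and 1.27 CPM in FL_NoUV and 1.34, 1.94, 2.17 and 1.36 in cKO_NoUV, so 1 control library of that experiment lay above all 6 whole-body KO libraries. In FL_UV it held 0.9, 13.7, 9.47 and 6.28 CPM and in cKO_UV 0.937, 2.45, 0.814 and 0.94. Greb1 in the same FL_NoUV library was at 11 CPM, with 1.96 to 2.55 in the others. The number of genes called for the difference was 5 without WT_NoUV replicate 2, 34 without WT_UV replicate 3 and 25 without FL_NoUV replicate 4, and that for cKO against FL was 853, 216, 113 and 81 without cKO_NoUV replicate 1, FL_UV replicate 2, cKO_UV replicate 1 and cKO_UV replicate 3.

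**Figure D5:**
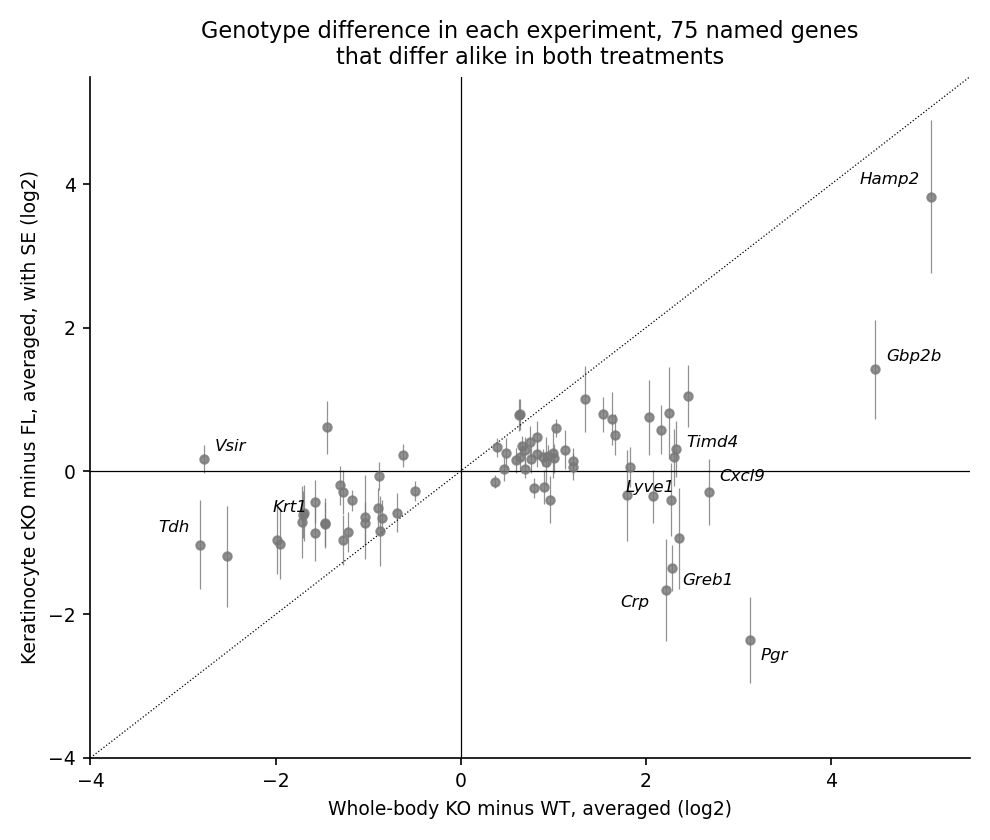
Averaged log2 fold change of KO against WT (x axis) and of cKO against FL with its SE (y axis) for the 75 named genes that differed alike. The dotted line marks equal values. In the keratinocyte experiment 60 of the 75 had the same sign, and Pgr, Greb1, Crp and Vsir were among those that did not.

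Markers of other tissue layers were also measured. Averaged values of skeletal muscle markers were above 0 for 18 of 18 members, and 14 had the same sign in both treatments. The median of the 18 members was 0.49. Of these, 3 were called (Myh4, Neb and Tnnt3), 16.7% against 3.93% of all genes called higher. Their summed level was 14300 to 22800 CPM in WT_NoUV and 28500 to 34600 in KO_NoUV, and 23400 to 33900 in WT_UV and 24600 to 44400 in KO_UV. The count was 0 without WT_NoUV replicate 1, WT_UV replicate 2 or 3, KO_NoUV replicate 1 or 2 or KO_UV replicate 1 or 2, 1 without KO_NoUV replicate 3 and 5 without WT_UV replicate 1. Anagen hair follicle markers had a median of -0.98 with 1 of 12 called (Dlx3), 8.33% against 3.52% of all genes called lower. The count was 0 without KO_NoUV replicate 1 or 2 or KO_UV replicate 2, and 4, 3 and 2 without WT_UV replicate 1, WT_NoUV replicate 2 and KO_UV replicate 3. Their summed levels overlapped between the genotypes. Without light WT held 180 to 296 CPM and KO 209 to 228, and after light WT held 81.8 to 188 and KO 85.5 to 88.7. Replicate 3 was the highest WT library in both treatments. The median was -0.58 without WT_UV replicate 3, -0.78 without WT_NoUV replicate 3 and -1.45 to -2.17 without any other single library. The first 2 fits tested the same number of members as the main fit, 12, and the others tested 14. These medians therefore cover different members, and the part of the added members was not tested. Adding both scores as covariates left 52 genes called, 40 of them among the 1517, and these included Vsir, Wdfy1, B2m, Timd4, Pgr, Greb1 and Ide but not Lyve1, Mcm5, Krt1 or any listed GTPase. With the covariates Lyve1 was at 1.65 and Gbp6 at 1.87 (adjusted p = 0.0516 for each), Mcm5 at -1.12 (adjusted p = 0.178) and Krt1 at -0.83 (adjusted p = 0.266), by the edgeR quasi-likelihood test. The summed muscle level did not overlap between the genotypes without light, so there its part in the genotype difference cannot be told apart from the genotype itself. Fibroblast markers had 1 of 12 tested members called higher (8.33%) and Schwann cell markers 2 of 8 (25%), against 3.93% of all genes. Sebaceous gland markers had 1 of 10 (10%) and B and plasma cell markers 1 of 6 (16.7%) called lower, against 3.52%. Of 12 adipocyte markers, 1 was called higher and 1 lower (16.7%, against 7.45% of all genes in either direction). Mast cell, melanocyte, endothelial, erythroid, neutrophil, immediate early and circadian clock lists had 0 called members.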

How the data were processed

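Deposited counts of reads per gene were used for 28 mouse skin libraries, of which 12 form the whole-body experiment and 16 the keratinocyte experiment. Per the labels' protocols, total RNA was depleted of ribosomal RNA and made into stranded libraries read as pairs of 100 bases. Per the submitters' processing notes, the authors used cutadapt 4.6, HISAT2 2.1.0 and featureCounts with GRCm38, and the strand and multi-mapping settings were not given in the sources used here. The total counts limit the precision of low genes.

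The main test used R 4.3.3 and edgeR 4.0.16: TMM factors, filterByExpr, a model of 4 group means and robust quasi-likelihood, with Benjamini-Hochberg adjustment and a threshold of 0.05. The experiments were compared in 1 model of 28 libraries, joined by gene identifier. Alternatives were DESeq2 1.42.0, limma 3.58.1 (voom), other scalings, no filter, a replicate block, left-out libraries and covariates. Some of these, among them pairs of libraries left out together and total count scaling, were chosen after seeing the data. The scripts were tested on simulated data.

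By rule, named were Vsir, 12 genes each with the greatest rise or fall that differed alike and whose mean log2 CPM reached 1 (predicted, mitochondrial and receptor segment genes left out), called genes within 10 Mb of Vsir, up to 4 members with the smallest p in each of 33 gene lists, and the 6 called genes with the smallest interaction p. Other list members named in the text were chosen after their values were seen. The members and lists were chosen with earlier results of these data known. Promoter windows are from RefSeq, GRCm38.p6.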

Additional observations from a re-analysis of the deposited data

Results flagged for a closer look

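In the keratinocyte experiment, 1 floxed library without light (replicate 3) lay far from the other 3 of its group for 3 genes. It held 38 CPM of Vsir, 25.9 CPM of Pgr and 11 CPM of Greb1. Pgr in the K14Cre group after light was also uneven, with 2.45 CPM in replicate 2. By chance about 1 in 20 groups would show such a library.

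The genotype difference itself differed between the whole-body and keratinocyte experiments in the joint edgeR model. This difference (whole-body minus keratinocyte, log2) was -2.96 for Vsir, 5.46 for Pgr, 3.62 for Greb1 and 2.28 for Ccl12, a monocyte chemokine. The experiments also differ in batch label and in control genotype, so these cannot be told apart from the deletion.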

How the results depend on the processing

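The averaged contrast called 1517 genes, and 3427 with DESeq2, 52 with the covariates, 744 without WT_NoUV replicate 1 and WT_UV replicate 2 together, 211 without KO_NoUV replicate 2 and KO_UV replicate 3 together, and 235 to 3076 with 1 library left out. The genes that differed alike numbered 1574, 674 and 204 under DESeq2 and the same pairs, and 223 to 2040 with 1 left out. Without light the count of 2 became 584 with DESeq2, 185 with no filter, 1 with the covariates, 6 with limma-voom, 4 in the 6 libraries alone, 37 without the WT pair, 14 with total count scaling and 2 to 27 with 1 left out. After light the count of 9 became 444, 162, 458 and 36 under the first 4 of these, 33 and 1 without the WT and KO pairs, and 2 to 155 with 1 left out. The interaction stayed at 0 in every alternative run. For cKO against FL the count was 294 with DESeq2 and 0 to 853 with 1 left out, and for the difference between experiments 146 with DESeq2, 4 and 3 without the pairs and 5 to 34 with 1 left out. The cause was not tested. None of the 100 called named genes reversed in sign, and most uncalled named genes were not rerun. Some list medians did change sign with the covariates, among them that of melanocyte markers, from -0.79 to 0.42.

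Same-numbered libraries did not deviate together in every pair (11 of 18 correlations over 0.1, range -0.383 to 0.334, and 8 of 12 libraries closest to their own number), so the numbers were not taken as pairs. With a replicate block the counts were 1286 averaged, 826 alike, 22 without light, 31 after light, 0 for the interaction, 116 for cKO against FL and 23 for the difference between experiments.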

Other observations

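Genes outside the lists were picked after their values were seen. Mmd2 (5.05), Plod2 (1.73), a collagen-modifying enzyme, and Cd38 (1.17), an enzyme that consumes NAD, were higher in KO by log2 and differed alike. Each also differed between the experiments, by 7.02 (SE 1.03), 2.73 (SE 0.46) and 1.7 (SE 0.29), with adjusted p of 0.00246, 0.0148 and 0.0148 in the joint edgeR model. The mean log2 CPM of Mmd2 lay below the 1 asked of named genes, so its values rest on low counts. Mmd2, Plod2 and Cd38 were not followed through the alternatives. The mitochondrial gene mt-Nd3 was 3.16 higher in KO after light and 1.97 without it.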
